A study of Mus musculus with 192 samples.

Results

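The 9 genes described here encode the proteins that make and use microRNAs (miRs): *Drosha*, *Dgcr8*, *Xpo5*, *Dicer1*, *Tarbp2*, *Ago1*, *Ago2*, *Ago3* and *Ago4*. They were taken by name, as a fixed list, from 39815 gene identifiers in the nuclear and cytoplasmic RNA tables, 45191 common to the total RNA tables and 54146 in the transfection tables, and each was found in every table. The cells were E14 mouse embryonic stem cells (mESCs), a wild-type line grown in 2i medium with LIF, taken at 8 times: before (0 h) and at 6, 12, 24 and 36 h, and again at 48, 72 and 96 h, of growth in N2B27 medium to which retinoic acid (RA, the all-trans form, at 0.25 µM) was added, so that RA and the change of medium cannot be told apart. Nuclear and cytoplasmic RNA came from 3 differentiation runs (24 libraries each), and total RNA from 3 other runs (14 libraries of unsorted cells, and 2 of cells sorted at 96 h). In separate experiments without RA, mESCs were kept in 2i medium with serum. They received mimics of 14 miRs for 24 h, or inhibitors of the same miRs for 48 h. Mimics were at 100 nM in the transfection mix that was added to the medium, and inhibitors at 2 times that amount. The reference there was a scrambled reagent, untreated cells were included, and each condition had 3 batches. All cells of the transfection experiments were fixed before RNA was extracted.

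Primary miR transcripts are cut in the nucleus by the microprocessor, in which the ribonuclease Drosha works with the RNA-binding protein Dgcr8. Exportin-5, the product of *Xpo5*, carries the hairpin precursor to the cytoplasm, where Dicer, encoded by *Dicer1*, cuts it to a duplex together with its partner protein Tarbp2. One strand is then held by an Argonaute protein, which is led to mRNAs by the seed of the miR, usually in the 3' UTR. Ago2 is the Argonaute that can cut a fully paired target. Embryonic stem cells that lack *Dgcr8* or *Dicer1* are known to differentiate poorly.

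Positions are on the mouse build GRCm38. *Drosha* lies on chromosome 15 (12824815 to 12935291, plus strand), as do *Tarbp2* (102518192 to 102523676, plus strand) and *Ago2* (73095844 to 73184935, minus strand). *Dgcr8* lies on chromosome 16 (18253948 to 18289246, minus strand), *Xpo5* on chromosome 17 (46202782 to 46243598, plus strand) and *Dicer1* on chromosome 12 (104687742 to 104751952, minus strand). The other 3 Argonaute genes are neighbours on the minus strand of chromosome 4: *Ago3* (126331704 to 126429556), *Ago1* (126435012 to 126468583) and *Ago4* (126489541 to 126533472). Argonaute genes are similar in coding sequence, so a read that fits several of them was divided by the quantification, and a part of the value of the weakly expressed *Ago3* and *Ago4* may belong to another member.

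Libraries held 6860451 to 30624948 counts in nuclear RNA, 9119521 to 21652601 in cytoplasmic RNA, 12653980 to 36364330 in total RNA, 6257546 to 37413414 after mimics and 8461493 to 44083843 after inhibitors. The labelled course of the cells was checked with fixed marker lists in cytoplasmic RNA, summed in CPM (counts scaled to the size of the library). The 8 mESC markers summed to 320.5 to 423.2 CPM at 96 h and to 6208 to 6441 CPM at 0 h. The 8 extraembryonic endoderm markers summed to 11405 to 17780 CPM at 96 h and to 224.4 to 243.1 CPM at 0 h, and the ectoderm markers (5 of 7 in the files) to 897.8 to 924.7 CPM at 96 h and 175.3 to 199.9 CPM at 0 h. Fibroblast markers (5 of 6 in the files) summed to 200.1 to 237.3 CPM at 96 h and to 3.42 to 4.93 CPM at 0 h, when *Acta2* was at 0 in all 3 libraries. These sums differed between 96 h and 0 h, their part in the changes below was not tested, and in bulk RNA fewer cells of a type cannot be told apart from less RNA per cell.

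Relative to length, *Tarbp2* and *Drosha* had the highest levels and *Ago4* the lowest, in both fractions. Over the 24 cytoplasmic libraries *Tarbp2* averaged 139.9 ± 24.0 TPM (transcript level scaled to gene length and library size) and *Drosha* 100.1 ± 13.5 TPM (SD). *Xpo5* (60.4 ± 7.20 TPM), *Dgcr8* (58.3 ± 9.60 TPM) and *Dicer1* (51.8 ± 11.2 TPM) followed. The means of *Xpo5* and *Dgcr8* lay within each other's SD, and that of *Dicer1* lay within the SD of *Dgcr8* but below that of *Xpo5*. *Ago1* (29.6 ± 4.97 TPM) and *Ago2* (26.4 ± 7.94 TPM) were also within their spread of each other, and above *Ago3* (5.35 ± 2.44 TPM) and *Ago4* (0.959 ± 0.517 TPM). In nuclear RNA the order was *Tarbp2* (151.0 TPM), *Drosha* (89.6), *Dgcr8* (67.6), *Xpo5* (53.8), *Dicer1* (39.9), *Ago1* (28.7), *Ago2* (23.3), *Ago3* (4.75) and *Ago4* (1.06). These levels describe the libraries and were not tested.

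In the time course, *Dicer1* rose and *Ago1* and *Ago2* fell by 96 h in both fractions, while most other members changed for a part of the course. At 96 h against 0 h, 4 of 9 members passed edgeR's quasi-likelihood test in cytoplasmic RNA, 2 of them higher and 2 lower, against 67.7% of the 11675 genes tested (33.3% higher and 34.4% lower). In nuclear RNA 4 of 9 passed, 1 higher and 3 lower, against 55.5% of 11934 genes (27.7% higher and 27.8% lower). Of all genes in cytoplasmic RNA, the test against 0 h called 33.4% at 6 h, 34.3% at 12 h, 43.8% at 24 h, 50.6% at 36 h, 57.1% at 48 h and 65.4% at 72 h. In nuclear RNA it called 20.3% at 6 h, 23.9% at 12 h, 29.5% at 24 h, 38.9% at 36 h, 45% at 48 h and 53.2% at 72 h. The values of single members below are read against these shares. A change at any of the 8 times was called for 8 of 9 members in cytoplasmic RNA (85.1% of all genes) and for 7 of 9 in nuclear RNA (74.2%). *Ago3* was the exception in both, and *Tarbp2* in nuclear RNA. The median log2 fold change of the members at 96 h was -0.08 in cytoplasmic and -0.05 in nuclear RNA, and that of all genes -0.02 in each.

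**Figure D1:**
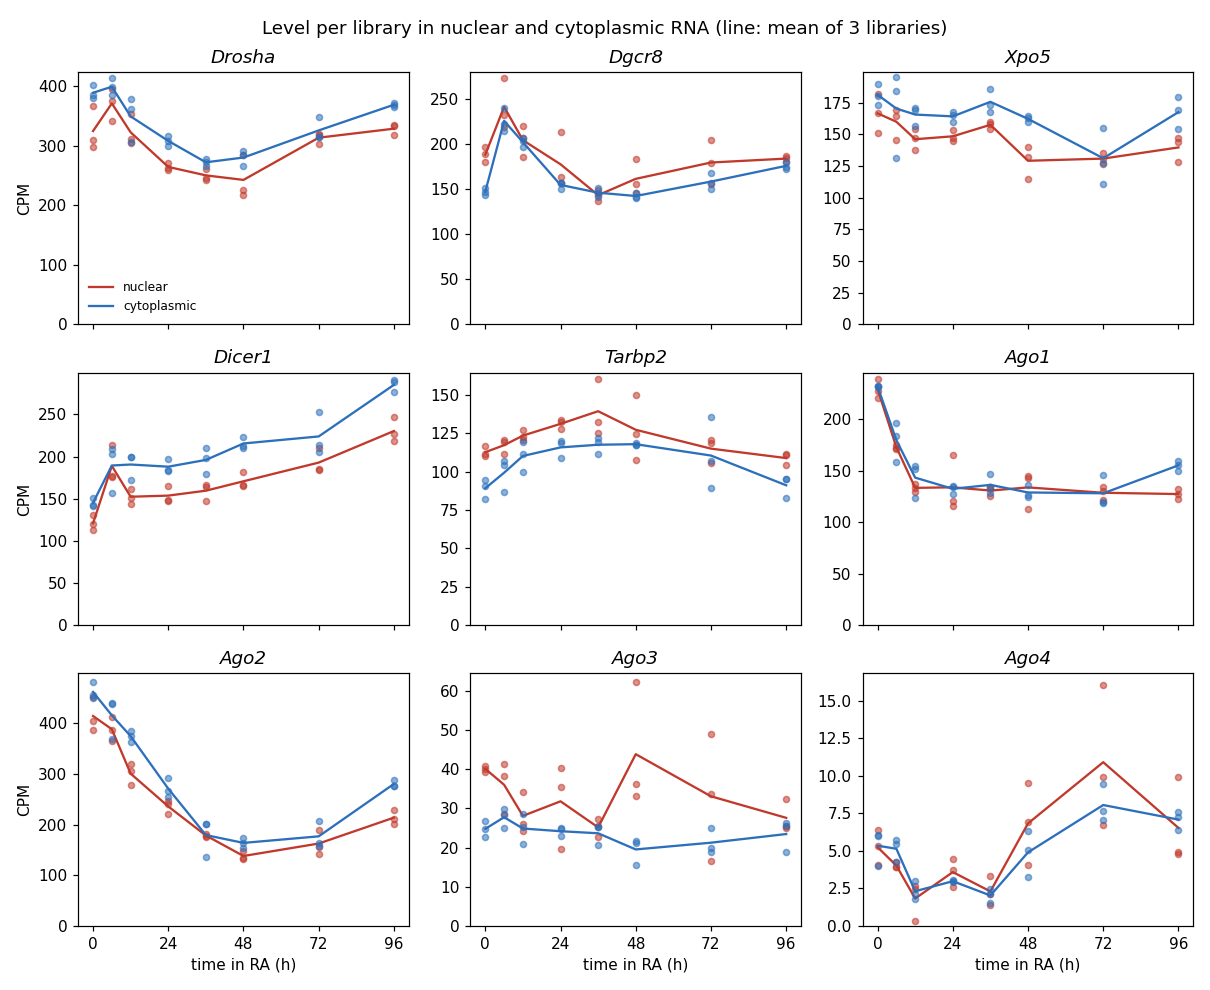
Level of each of the 9 genes in CPM (vertical axis, from 0, a scale of its own per panel) against time in RA in hours, with 1 point per library and lines through the mean of 3 libraries, for nuclear and cytoplasmic RNA. Cytoplasmic *Ago2* is at 461.6 CPM at 0 h, 163.8 CPM at 48 h and 280.1 CPM at 96 h, while *Dicer1* is highest at 96 h in both fractions.

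*Drosha*, the nuclease of the microprocessor, dipped in the middle of the course. In cytoplasmic RNA it averaged 389.2 ± 11.8 CPM at 0 h, 308.3 ± 8.00 at 24 h, 272.4 ± 5.30 at 36 h, 280.4 ± 13.3 at 48 h and 369.1 ± 2.84 at 96 h (SD, n = 3 libraries). All 3 libraries at 48 h (265.7, 284.2 and 291.4 CPM) lay below all 3 at 0 h (380.3, 402.6 and 384.8 CPM). The log2 fold change was -0.51 at 36 h (SE 0.07, adjusted p = 1.1e-06 from edgeR) and -0.47 at 48 h (adjusted p = 2.8e-06), and *Drosha* rose again at 96 h against 48 h (0.40, adjusted p = 3.4e-05, in a contrast that called 53% of all genes). In nuclear RNA the same contrasts gave -0.38 at 36 h (adjusted p = 0.0049 from edgeR), -0.42 at 48 h (0.0016) and 0.44 at 96 h against 48 h (0.0013, where 41.4% of genes were called).

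*Dgcr8*, the partner of *Drosha*, was highest at 6 h in both fractions. It averaged 147.0 ± 4.30 CPM at 0 h, 225.4 ± 12.9 at 6 h, 201.8 ± 4.76 at 12 h, 154.5 ± 3.45 at 24 h, 142.2 ± 2.53 at 48 h and 175.6 ± 3.86 CPM at 96 h in cytoplasmic RNA (SD, n = 3). The rise at 6 h was 0.62 on the log2 scale (SE 0.06, adjusted p = 1.7e-08 from edgeR), where 33.4% of all genes were called, and the fall between 12 h and 24 h was -0.39 (adjusted p = 2.8e-05, with 19.4% of genes called). At 96 h the libraries had 172.4, 179.9 and 174.4 CPM, against 142.8, 151.4 and 146.7 CPM at 0 h (0.26, SE 0.06, adjusted p = 4.0e-04). In nuclear RNA the rise at 6 h was 0.36 (adjusted p = 0.040), *Dgcr8* was lower at 36 h than at 0 h (-0.39, adjusted p = 0.013), and the difference of 96 h from 0 h was -0.03 (adjusted p = 0.84). The ratio of *Drosha* to *Dgcr8* in TPM averaged 2.22 ± 0.16 at 0 h and 1.49 ± 0.07 at 6 h in cytoplasmic RNA. In nuclear RNA the change was smaller, from 1.48 ± 0.10 at 0 h to 1.29 ± 0.08 at 6 h.

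*Xpo5*, which encodes the export receptor of precursor hairpins, had a narrow range. The lowest cytoplasmic mean was 131.2 ± 22.0 CPM at 72 h and the highest 181.3 ± 8.41 CPM at 0 h, and the difference of 72 h from 0 h was -0.47 (SE 0.11, adjusted p = 0.0010 from edgeR). In nuclear RNA it fell at 48 h (-0.37, adjusted p = 0.0032) and 72 h (-0.35, adjusted p = 0.0040). The nuclear libraries had 127.9, 147.2 and 144.1 CPM at 96 h, against 182.2, 167.0 and 150.9 CPM at 0 h (-0.25, SE 0.10, adjusted p = 0.029). These groups did not overlap, but the call was lost without either the run 5 or the run 6 library at 0 h (adjusted p = 0.15 and 0.064) or without the run 5 library at 96 h (0.14).

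*Dicer1* was the member with the largest rise at 96 h among those called in either fraction. In cytoplasmic RNA it had 288.0, 290.6 and 276.3 CPM at 96 h, against 141.5, 151.0 and 142.8 CPM at 0 h, with no overlap (log2 fold change 0.97, SE 0.09, adjusted p = 5.5e-09 from edgeR). The means were 145.1 CPM at 0 h, 189.3 at 6 h, 187.9 at 24 h, 215.5 at 48 h, 223.8 at 72 h and 285.0 at 96 h, and each of the 7 times passed the test against 0 h. In nuclear RNA *Dicer1* had 218.0, 246.4 and 226.3 CPM at 96 h, against 119.6, 130.1 and 112.3 CPM at 0 h (0.93, SE 0.10, adjusted p = 3.0e-08), and again all 7 times passed.

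*Tarbp2*, whose product binds Dicer, was called higher than at 0 h from 12 h to 72 h in cytoplasmic RNA. Cytoplasmic means were 89.2 ± 6.30 CPM at 0 h, 110.2 ± 9.92 at 12 h, 117.9 ± 0.78 at 48 h and 91.1 ± 7.44 CPM at 96 h (SD, n = 3). The log2 fold change was 0.40 at 48 h (SE 0.11, adjusted p = 0.0041 from edgeR) and -0.37 for 96 h against 48 h (adjusted p = 0.0079). At 96 h the value was 0.03 (adjusted p = 0.82). In nuclear RNA 36 h was the only time that passed against 0 h (0.31, adjusted p = 0.027).

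*Ago2*, the slicing Argonaute, had the largest fall of the 9 members at 48 h and then rose. In cytoplasmic RNA the libraries had 455.2, 480.8 and 448.8 CPM at 0 h, 153.8, 173.6 and 163.9 CPM at 48 h, and 276.1, 287.5 and 276.8 CPM at 96 h. The 3 times did not overlap. The difference from 0 h was -1.49 at 48 h (SE 0.12, adjusted p = 3.7e-10 from edgeR) and -0.72 at 96 h (SE 0.12, adjusted p = 1.1e-05), and that of 96 h from 48 h was 0.77 (adjusted p = 8.8e-06). In nuclear RNA *Ago2* had 451.7, 386.7 and 404.1 CPM at 0 h, 148.6, 131.0 and 134.1 CPM at 48 h, and 200.6, 211.9 and 228.4 CPM at 96 h. The contrasts there were -1.59 (adjusted p = 1.4e-11), -0.95 (3.0e-08) and 0.63 for 96 h against 48 h (2.9e-05). The steps called in both fractions were the falls between 12 h and 24 h and between 24 h and 36 h, and the rise between 72 h and 96 h. These steps called 19.4%, 11.3% and 27% of all genes in cytoplasmic RNA and 10.3%, 4.94% and 14% in nuclear RNA.

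*Ago1*, which like *Ago3* and *Ago4* is not known as a strong slicer, was below its 0 h level from 6 h on. In cytoplasmic RNA it averaged 231.7 ± 0.39 CPM at 0 h, 179.6 ± 19.1 at 6 h, 143.2 ± 16.9 at 12 h, 132.3 ± 4.05 at 24 h, 128.0 ± 15.2 at 72 h and 155.1 ± 4.81 CPM at 96 h (SD, n = 3). Libraries at 96 h had 155.8, 159.5 and 150.0 CPM, against 231.3, 231.8 and 232.0 CPM at 0 h (-0.58, SE 0.09, adjusted p = 6.6e-06 from edgeR). In nuclear RNA they had 127.2, 122.7 and 131.9 CPM at 96 h, against 238.8, 227.6 and 220.8 CPM at 0 h (-0.85, SE 0.11, adjusted p = 9.6e-07). In each fraction all 7 times were called below 0 h.

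The remaining Argonaute genes were low throughout. *Ago3* ranged between means of 19.5 CPM (48 h) and 27.7 CPM (6 h) in cytoplasmic RNA and between 25.1 CPM (36 h) and 43.8 CPM (48 h) in nuclear RNA, and no time passed the test against 0 h in either. *Ago4* was at 5.35 ± 1.16 CPM at 0 h, 2.03 ± 0.49 at 36 h, 4.90 ± 1.54 at 48 h, 8.06 ± 1.27 at 72 h and 7.09 ± 0.62 CPM at 96 h in cytoplasmic RNA (SD, n = 3). It was lower at 36 h than at 0 h (-1.40, SE 0.28, adjusted p = 2.7e-04 from edgeR), rose between 36 h and 48 h (1.27, adjusted p = 0.0034, with 16.5% of genes called) and between 48 h and 72 h (0.71, adjusted p = 0.036, with 36.9% called), and was not called at 96 h against 0 h (0.40).

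Set beside each other in TPM, the summed Argonaute mRNA of the cytoplasm was 81.4 ± 2.56 TPM at 0 h, 49.0 ± 2.53 at 48 h and 69.2 ± 3.73 TPM at 96 h (SD, n = 3). *Ago1* made up 48.4 ± 0.42% of it at 0 h, 53.1 ± 1.04% at 48 h and 48.7 ± 1.19% at 96 h. *Ago2* made up 46.4 ± 2.58%, 34.5 ± 5.00% and 41.6 ± 0.54% at the same times. The share of *Ago3* was 4.00 ± 2.19% at 0 h and 14.6 ± 4.89% at 36 h. Its cytoplasmic TPM was 3.29 ± 1.91 at 0 h and 7.84 ± 2.30 at 36 h. In CPM it was at 24.8 ± 2.02 and 23.6 ± 2.67, so the measures differ for *Ago3* here. They also differed for other members. From 0 h to 96 h, cytoplasmic *Drosha* went from 389.2 to 369.1 CPM but from 104 to 123.9 TPM. *Xpo5* went from 181.3 to 167.6 CPM but from 59.5 to 69.4 TPM. *Dicer1*, *Ago1* and *Ago2* went the same way in both measures between these times. The nuclear sum was 81.5 ± 8.15 TPM at 0 h, 50.5 ± 11.2 at 48 h and 51.4 ± 1.80 TPM at 96 h. These shares are a description, with no test.

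**Figure D2:**
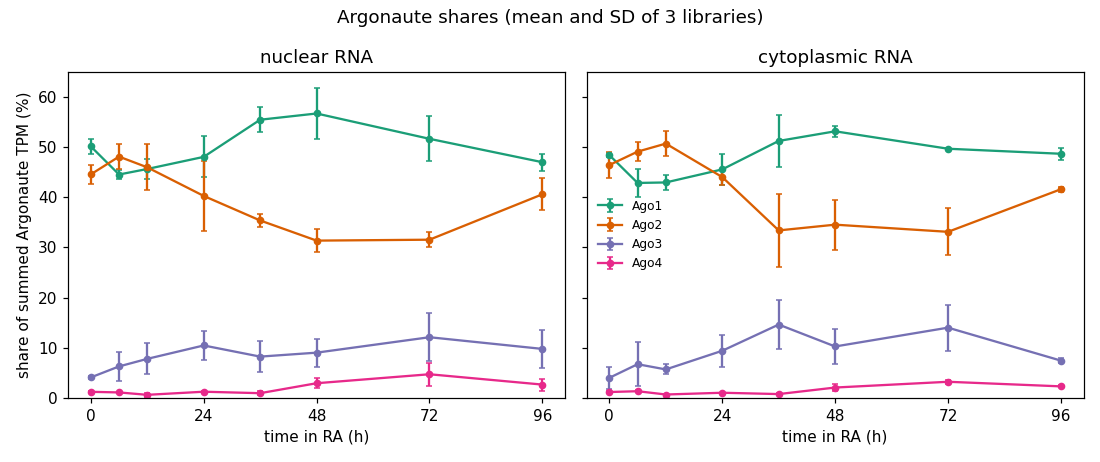
Share of *Ago1* to *Ago4* in the summed Argonaute TPM (vertical axis, percent) against time in RA in hours, for nuclear (left) and cytoplasmic RNA (right), with points at the mean of 3 libraries and bars of 1 SD. In cytoplasmic RNA the share of *Ago2* is 46.4% at 0 h and 34.5% at 48 h, and *Ago1* holds 53.1% at 48 h.

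Nuclear and cytoplasmic RNA were then fitted together, with CPM scaled over all 48 libraries. Of the 9 members, 8 differed between the fractions on average over the 8 times (5 lower and 3 higher in the nucleus), against 31.1% of the 11817 genes tested (17.2% lower and 13.9% higher). The differences were small. The median member was at -0.09 on the log2 scale, and the median of all genes at -0.01. CPM is scaled to the library, so equal CPM does not mean equal amounts of RNA in the fractions. The paper names poor fractionation, with cytoplasmic RNA left among the nuclear RNA, as a possibility. This was not tested here.

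*Dicer1* averaged 168.9 ± 32.9 CPM in nuclear and 207.0 ± 42.9 CPM in cytoplasmic RNA (SD, n = 24 libraries each, over all times). Of the 24 pairs from one run and time, 1 had the higher nuclear value (log2 difference -0.29, SE 0.03, adjusted p = 2.9e-08 from edgeR). *Ago2* averaged 250.7 ± 99.3 CPM in nuclear and 293.2 ± 111.3 CPM in cytoplasmic RNA, with the nucleus higher in 2 of 24 pairs (-0.23, SE 0.04, adjusted p = 1.8e-05). *Xpo5* (-0.20, nucleus higher in 3 pairs, adjusted p = 7.1e-05) and *Drosha* (-0.19, 2 pairs, adjusted p = 3.9e-06) differed in the same direction. What was measured is mRNA, and not where the proteins act.

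In the nucleus, *Tarbp2* averaged 120.3 ± 13.3 CPM, against 107.8 ± 14.8 CPM in the cytoplasm, and was higher there in 22 of 24 pairs (0.16, SE 0.04, adjusted p = 0.0011). *Ago3* averaged 32.8 ± 9.97 CPM in nuclear and 24.0 ± 3.44 CPM in cytoplasmic RNA, with 18 of 24 pairs higher in the nucleus (0.43, SE 0.09, adjusted p = 1.9e-04). The deposited TPM of *Ago3* pointed the other way, with means of 4.75 in nuclear and 5.35 in cytoplasmic RNA, so the direction depends on the measure. *Dgcr8* was higher in the nucleus in 16 pairs (0.10, adjusted p = 0.026) and *Ago1* in 8 pairs (-0.09, adjusted p = 0.049). These last calls were not stable. That of *Dgcr8* was lost when any one of the nuclear runs 5 and 6 or the cytoplasmic runs 5, 6 and 7 was left out (adjusted p of 0.057 to 0.13), and that of *Ago1* without nuclear run 5 or 7 or cytoplasmic run 6 or 7 (0.072 to 0.41). *Ago4* did not pass (0.03, 95% interval -0.25 to 0.31).

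**Figure D3:**
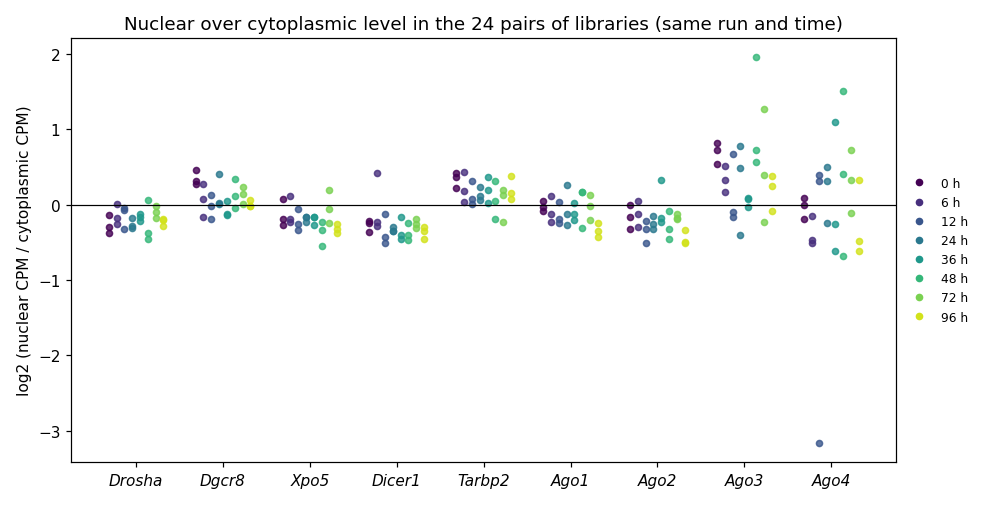
log2 of nuclear over cytoplasmic CPM (vertical axis) for each of the 24 pairs of libraries of the same run and time, by gene, with times from 0 h to 96 h running left to right in each gene and coloured as in the legend. Points of *Dicer1*, *Ago2* and *Drosha* lie below 0 in at least 22 of 24 pairs and those of *Tarbp2* above 0 in 22.

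At single times, few members passed. *Dgcr8* had a mean of 185.7 ± 8.36 CPM in nuclear RNA and 145.7 ± 4.75 CPM in cytoplasmic RNA at 0 h (0.35, SE 0.10, adjusted p = 0.028 from edgeR, where 3.77% of genes were called). At 48 h, where 9.43% of genes were called, *Ago3* averaged 43.4 ± 15.8 CPM in the nucleus and 19.8 ± 3.46 CPM in the cytoplasm (1.13, SE 0.25, adjusted p = 0.0031 from edgeR). The deposited TPM of *Ago3* did not show this excess at 48 h, with 4.55 ± 1.73 in nuclear and 5.00 ± 1.70 in cytoplasmic RNA. *Dicer1* (-0.37, adjusted p = 0.010) and *Xpo5* (-0.37, adjusted p = 0.021) passed at 48 h with the cytoplasm higher. Whether the difference changed with time was tested directly. By edgeR 0 of 9 members passed, against 12 of 11817 genes (0.102%), with 0 members at an unadjusted p under 0.05 (lowest 0.073, *Ago3*) and 0 called by DESeq2. In the single contrast of 96 h with 0 h, the fraction difference of *Dgcr8* changed by -0.34 on the log2 scale (unadjusted p = 0.015, adjusted p = 0.64) and that of *Ago1* by -0.32 (unadjusted p = 0.033, adjusted p = 0.68). Neither passed, and 0% of all genes did.

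Total RNA gave no member past the test. At 96 h against 0 h in the 4 single-end libraries of runs 1 and 2, 0 of 9 members were called by edgeR, 0 had an unadjusted p under 0.05 and DESeq2 called 0, while 29.7% of the 15777 genes tested were called. *Dicer1* had 75.6 and 126.7 CPM at 96 h, against 52.1 and 77.5 CPM at 0 h, higher at 96 h in each run, with groups that overlapped (0.60, SE 0.35, adjusted p = 0.25). *Dgcr8* had 91.7 and 97.9 CPM at 96 h, against 55.3 and 74.5 CPM at 0 h (0.51, SE 0.26, adjusted p = 0.19). With run as a block, *Dicer1* was called (0.58, adjusted p = 0.029, as were 7462 genes of all tested), and *Dgcr8* had an adjusted p of 0.056. *Ago2* had 160.9 and 224.9 CPM at 96 h, against 146.3 and 298.0 CPM at 0 h, with opposite directions in the 2 runs (-0.25, adjusted p = 0.67). The other members had log2 fold changes of -0.13 (*Drosha*), -0.31 (*Xpo5*), -0.38 (*Tarbp2*), -0.21 (*Ago1*), 0.35 (*Ago3*) and 1.06 (*Ago4*), with adjusted p of 0.20 to 0.80.

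Within runs, *Ago2* was at 146.3, 248.2, 109.9, 72.0, 74.5, 154.8 and 160.9 CPM at 0, 6, 24, 36, 48, 72 and 96 h of run 1, and at 550.4, 280.0, 202.9, 184.1 and 193.7 CPM at 0, 12, 24, 36 and 48 h of run 3. Both runs were lowest at 36 h. The titles of the single-end libraries from 6 h to 72 h hold no replicate number, and these libraries were taken as run 1. *Ago1* was at 67.4 CPM at 0 h and 36.3 CPM at 48 h in run 1, and at 176.1 and 91.9 CPM at these times in run 3. With 1 library per time and run these courses have no replicate check, and the 36 h and 48 h libraries of run 1 differed by only 1.19 times the sampling noise (9.48 times for the next closest of 91 pairs).

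**Figure D4:**
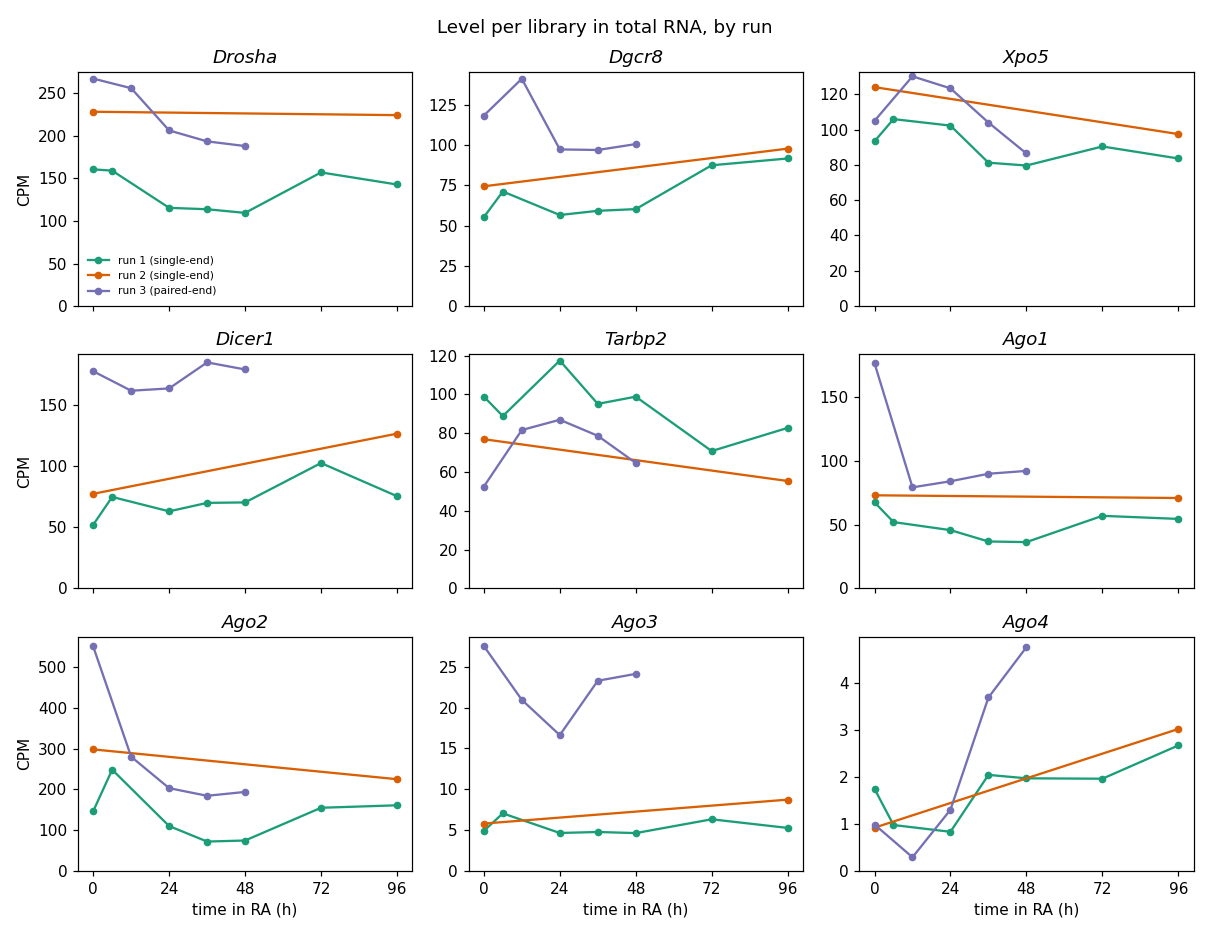
Level in total RNA (vertical axis, CPM from 0, own scale per gene) against time in RA in hours, with 1 point per library and 1 line per run. Run 3, read from both ends, holds *Ago2* at 550.4 CPM at 0 h, against 146.3 and 298.0 CPM in runs 1 and 2.

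Cells sorted at 96 h gave 1 library labelled XEN (extraembryonic endoderm-like) and 1 labelled ECT (ectoderm-like), so no test was made. The labels conflict: the sort given in the sample fields of each library is the one that the extraction protocol gives for the other, and the libraries are named here by their titles. *Pdgfra* was at 837.7 CPM in XEN and 224.4 CPM in ECT, and *Cd24a* at 23.4 and 707.2 CPM, which are the surface markers of the sort. *Ago1* was at 42.7 CPM in XEN and 95.5 CPM in ECT, *Dicer1* at 68.0 and 116.4 CPM, and *Ago3* at 3.52 and 7.17 CPM. *Dgcr8* (102.3 and 79.0 CPM) and *Tarbp2* (81.7 and 59.0 CPM) lay the other way, and *Drosha* (124.0 and 146.0 CPM), *Xpo5* (89.1 and 80.6 CPM), *Ago2* (161.5 and 189.5 CPM) and *Ago4* (2.65 and 2.47 CPM) were closer.

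Mimics add and inhibitors block a single miR, and the same 9 genes were read in those libraries. Mature sequences are shown for 5 miRs that are described below with a member, from RefSeq on build GRCm38.p6, with the seed, bases 2 to 8, in capitals, while miR-467e-5p and miR-1946a are named only:
miR-99a-5p: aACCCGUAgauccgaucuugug
miR-100-5p: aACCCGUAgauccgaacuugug
miR-152-3p: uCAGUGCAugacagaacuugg
miR-1946b: gCCGGGCAgugguggcacaugcuuuu
miR-23b-5p: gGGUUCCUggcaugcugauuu
The pair miR-99a-5p and miR-100-5p share a seed. Their reverse complement TACGGGT was looked for, on the coding strand only, in the longest annotated 3' UTR of each member, as were those of the other miRs except miR-467e-5p and miR-1946a. *Ago2* holds it once, and 10.6% of 47 3' UTRs within 20% of its length do. Its context on chromosome 15 is shown because *Ago2* is described with both miRs, with the match in capitals:
Ago2 3' UTR, chr15:73106130-73106151, minus strand: tttctaaagaaTACGGGTctgt
*Ago1* holds TGCACTG, the match of miR-152-3p, 2 times (38.6% of 865 like UTRs hold it), and is shown because it had the largest difference per SE with that mimic. The same letters occur in *Dgcr8* (1 time), *Dicer1* (2), *Ago2* (2), *Ago3* (3) and *Ago4* (3):
Ago1 3' UTR, chr4:126436303-126436324, minus strand: tagccctgggtTGCACTGtcct
Ago1 3' UTR, chr4:126435387-126435408, minus strand: atgtgtctgaaTGCACTGagtc
*Dicer1* holds TGCCCGG, the match of miR-1946b, 2 times (7.01% of 1141 like UTRs), and *Dgcr8* holds neither TACGGGT nor AGGAACC, the match of miR-23b-5p. A match is a description of the letters and not a tested site.

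After mimics, 0 of 126 tests (9 members, 14 miRs) passed edgeR's test at an adjusted p of at most 0.01, against 0.0983% of all tests. Of the 126, 8 had an unadjusted p under 0.05, against 7.51% of all tests, and DESeq2 called 1. The lowest p was that of *Ago1* with the miR-467e-5p mimic, at 65.6, 75.8 and 84.0 CPM, against 123.0, 109.6 and 138.6 CPM with the scrambled reagent and 102.2, 118.2 and 101.7 CPM in untreated cells. The labels and the study's reagent list name this miR, but the library names of the same samples read miR-467a-5p. The 3 libraries lay below all of these scrambled and untreated values (log2 fold change -0.72, SE 0.17, adjusted p = 0.029). With batch as a block this pair was called (-0.72, adjusted p = 0.0076), where 0.418% of all tests were. DESeq2 also called it (adjusted p = 0.0058), and so did the same fit without the miR-1946b library of batch 2 (2.0e-04). Over 7 fits that left out a batch or a library, the log2 fold change was -0.81 to -0.63. The adjusted p of edgeR ranged from 2.0e-04 to 0.85 over these fits, so the call was not stable.

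The next pairs by p were chosen after their values were seen. *Ago1* was at 78.3, 84.9 and 88.5 CPM with the miR-152-3p mimic, below every scrambled library (-0.56, SE 0.17, adjusted p = 0.27). Of the other members with its seed match, *Dgcr8* (-0.10), *Dicer1* (-0.09), *Ago2* (-0.25), *Ago3* (-0.15) and *Ago4* (-0.63) had adjusted p of 0.96 to 0.99. *Ago2* was at 209.1 and 219.1 CPM with the miR-100-5p mimic (2 batches) and at 245.0, 266.8 and 244.1 CPM with the miR-99a-5p mimic, against 320.8, 349.7 and 358.3 CPM with scrambled. Neither group overlapped with scrambled, and neither passed (-0.68, adjusted p = 0.63, and -0.44, adjusted p = 1.0). With the miR-1946b mimic *Tarbp2* had a log2 fold change of 0.43, but 1 library, of batch 2, stood apart in most members: it held *Ago2* at 98.6, *Ago1* at 55.3, *Drosha* at 146.6, *Dicer1* at 71.8 and *Tarbp2* at 165.9 CPM. Without it the log2 fold changes were -0.20 for *Ago2*, -0.03 for *Ago1*, -0.07 for *Drosha*, -0.09 for *Dicer1* and -0.03 for *Tarbp2*, against -0.57, -0.33, -0.33, -0.36 and 0.43 with it.

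After inhibitors, 0 of 126 tests passed in edgeR (0.0428% of all tests did). Here 10 of 126 had an unadjusted p under 0.05, against 4.77% of all tests, and DESeq2 called 0. With batch as a block edgeR also called 0, but 2 had an adjusted p under 0.05, against 0 without the block. The lowest p was that of *Dicer1* with the miR-1946b inhibitor, at 122.8, 126.6 and 140.8 CPM, against 162.5, 150.7 and 157.5 CPM with scrambled. The groups did not overlap (-0.27, SE 0.07, adjusted p = 0.060).

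Other pairs are named after their values were seen. *Dgcr8* was at 92.6, 70.9 and 92.0 CPM with the miR-99a-5p inhibitor (0.76, SE 0.20, adjusted p = 1.0) and at 62.0, 67.2 and 78.0 CPM with the miR-100-5p inhibitor (0.45, adjusted p = 0.99). With the miR-23b-5p inhibitor it was at 29.6, 35.0 and 42.5 CPM (-0.50, adjusted p = 0.55), against 47.1, 47.1 and 57.7 CPM with scrambled. Untreated cells spread over 52.7, 38.9 and 86.2 CPM, a range that takes in 5 of these 9 values. *Ago2* was at 526.0, 488.2 and 483.1 CPM with the miR-99a-5p inhibitor and at 507.4, 494.1 and 512.4 CPM with the miR-100-5p inhibitor, against 427.9, 409.4 and 463.9 CPM with scrambled (0.20 and 0.22, adjusted p = 1.0 and 0.99). Untreated cells of the inhibitor set had 444.8 to 525.2 CPM of *Ago2*, a range that takes in 5 of these 6 inhibitor values. In value, *Ago2* was thus lower with both mimics of this seed than with the scrambled reagent. These mimic libraries also lay below untreated cells of the mimic set (278.7 to 374.4 CPM). With both inhibitors of this seed *Ago2* was higher against the scrambled reagent only. No difference from the scrambled reagent passed. Such values were not particular to these miRs. With the miR-152-3p mimic *Ago2* was at 271.9 to 309.9 CPM, also below the scrambled libraries. The miR-467e-5p inhibitor gave 0.18 (adjusted p = 0.93 from edgeR). Over the 14 miRs the log2 fold change of *Ago2* was negative with 10 mimics and 9 inhibitors.

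Over the 14 mimics *Dgcr8* ranged from -0.10 to 0.11 on the log2 scale and *Xpo5* from -0.17 to 0.15, while *Ago1* ranged from -0.72 to 0.15 and *Ago2* from -0.68 to 0.21. The ranges with mimics were -0.33 to 0.08 for *Drosha*, -0.36 to 0.09 for *Dicer1*, -0.18 to 0.43 for *Tarbp2*, -0.47 to 0.10 for *Ago3* and -0.63 to 0.54 for *Ago4*. With inhibitors *Drosha* ranged from -0.03 to 0.14 on the log2 scale and *Xpo5* from -0.14 to 0.04, while *Dgcr8* ranged from -0.50 to 0.76. *Dicer1* lay between -0.27 and 0.18, *Tarbp2* between -0.29 and 0.12, *Ago1* between -0.19 and 0.21, *Ago2* between -0.13 and 0.22, *Ago3* between -0.39 and 0.30 and *Ago4* between -0.18 and 0.34. The median SE was 0.20 for mimics and 0.13 for inhibitors in the main fit, which left out the pairing by batch. With batch as a block it was 0.14 and 0.09. Small changes in a member were not detectable in these fits, at this depth and number of batches.

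**Figure D5:**
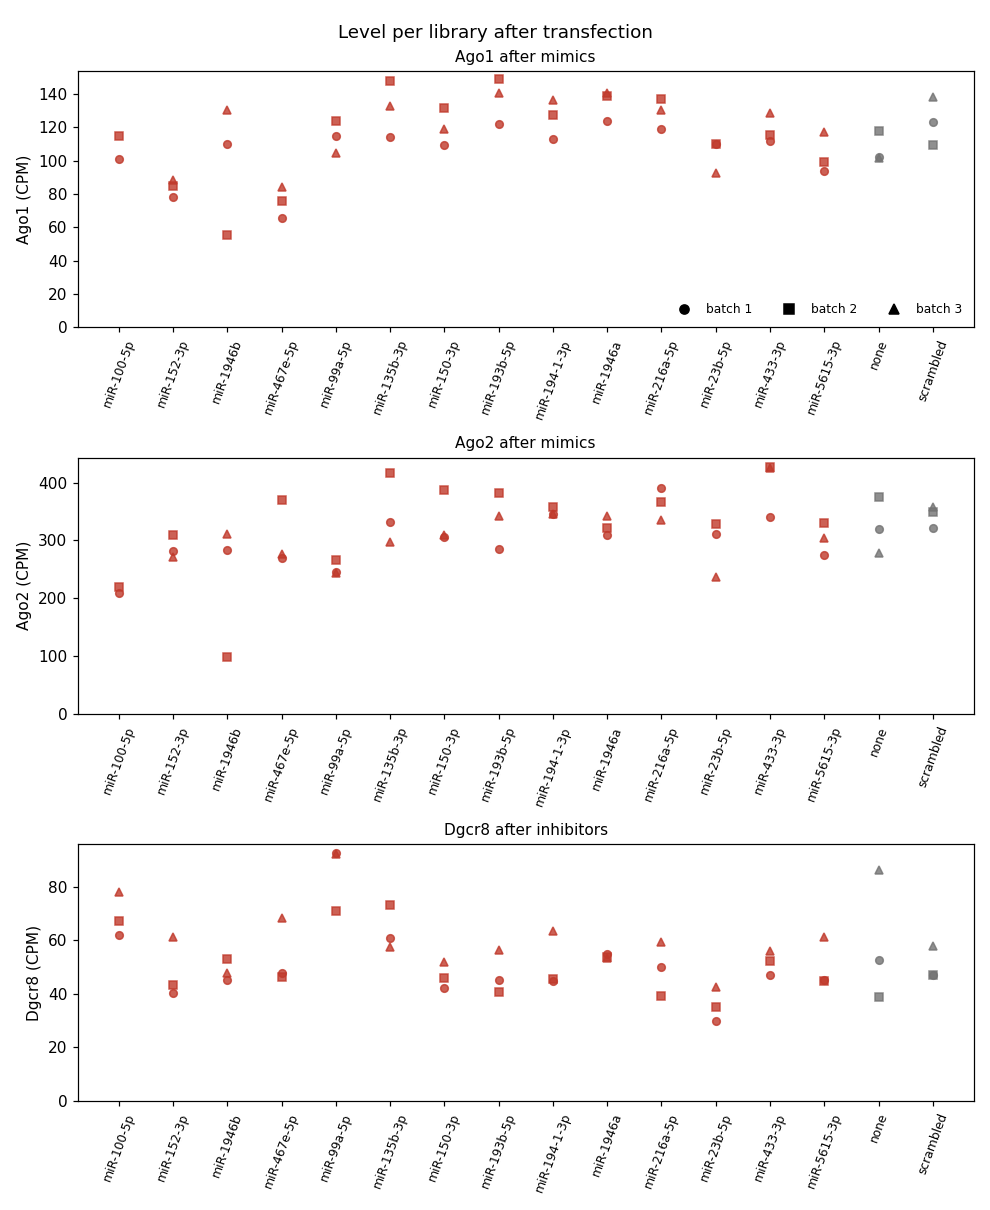
Level per library (vertical axes, CPM from 0) of *Ago1* and *Ago2* after each mimic and of *Dgcr8* after each inhibitor, with miRs, untreated (none) and scrambled along the horizontal axis and a symbol per batch. *Ago1* with the miR-467e-5p mimic is at 65.6 to 84.0 CPM, below the scrambled libraries at 109.6 to 138.6 CPM.

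The wider pathway was followed with 46 genes in 5 lists, of which 35 could be tested in the fractions. At 96 h against 0 h, 8 were higher and 17 lower in cytoplasmic RNA, and 6 higher and 17 lower in nuclear RNA (background as above). In total RNA all 46 could be tested, and 5 were higher and 4 lower, where 29.7% of all genes were called. Of 8 tested Dicer partners and loading chaperones, 1 rose and 6 fell in cytoplasmic RNA (median -0.77). *Prkra*, a Dicer partner related to *Tarbp2*, rose (1.86, adjusted p = 3.1e-10 from edgeR), and the chaperone *Hsp90aa1* (-1.55) and the co-chaperones *Fkbp4* (-0.89) and *Fkbp5* (-0.86) fell. Of 10 genes of precursor control and turnover, 5 rose and 4 fell (median 0.21). *Lin28a* (3.74, adjusted p = 3.7e-19) and *Lin28b* (5.29, adjusted p = 2.0e-11), which encode proteins known to block the processing of let-7 precursors, rose most among them. Of 6 microprocessor cofactors none rose and 3 fell (*Ddx5*, *Ddx17* and *Srrt*, median -0.15). Of 3 export genes 1 rose (*Rcc1*) and 1 fell (*Ran*). Among the silencing effectors 8 could be tested in the fractions, of which 1 rose (*Tnrc6c*) and 3 fell (*Pan3*, *Dcp2* and *Pabpc1*, median -0.12).

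Among 9502 genes compared over the 24 cytoplasmic libraries, the profile most like that of *Ago2* was that of *Fam102a* (Pearson's r of log2 CPM 0.96, and 0.94 in nuclear RNA), and next that of *Zfp704* (0.96 and 0.87). *Ago1* was nearest to *Trpm7* (0.94 and 0.89) and *Paxip1* (0.92 and 0.86). *Drosha* was nearest to *Ddah1* (0.94 and 0.87) and *Tnrc18* (0.92 and 0.87), *Dgcr8* to *Trib1* (0.96 and 0.67) and *Cdc42ep4* (0.93 and 0.67), and *Dicer1* to *Qser1* (0.93 and 0.71) and *Tent5c* (0.93 and 0.81). *Xpo5* was nearest to *Mtpap* (0.90 and 0.68) and *Trim33* (0.88 and 0.39), and *Tarbp2* to *Halr1* (0.86 and 0.57) and *Anp32b* (0.83 and 0.51). *Ago3* was nearest to *6030458C11Rik* (0.76 and 0.16) and *Srsf10* (0.74 and 0.50), and *Ago4* to *Sgsh* (0.87 and 0.49) and *B2m* (0.86 and 0.45). Among the members, *Ago1* and *Ago2* (0.79 and 0.74), *Drosha* and *Ago2* (0.82 and 0.64) and *Drosha* and *Dgcr8* (0.63 and 0.71) ran together, and *Drosha* and *Tarbp2* ran against each other (-0.75 and -0.62). The points share 8 times and 3 runs, so these values describe the course and carry no p.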

How the data were processed

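The genes of miR processing and the Argonaute genes were read in nuclear and cytoplasmic RNA, total RNA and RNA after mimics and inhibitors, and the 32 small RNA libraries were not used here. The authors aligned the paired-end reads with STAR 2.6.1a and deposited, per gene, expected counts and TPM from RSEM 1.3.1 on the mm10 mouse genome. For the single-end reads of total RNA they used Bowtie2 2.2.6, then RSEM 1.2.28, so the main test of total RNA left run 3 out. The alternative fit of 14 total RNA libraries held both kinds of reads, with run as a block. Expected counts were rounded, scaled by TMM and tested with edgeR 4.0.16 in R 4.3.3 (quasi-likelihood test, Benjamini-Hochberg over all genes), at an adjusted p under 0.05, or of at most 0.01 for transfections. Genes needed a mean count above 10, or above 20 for transfections. DESeq2 1.42.0 was an alternative. TPM served for levels between genes. Groups shared 1 spread per fit: 24 libraries for each fraction, 48 for both, 4 for total RNA, 47 for mimics and 48 for inhibitors. Batch 3 of the miR-100-5p mimic was left out, as in the study, for low complexity.

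All 9 members are named in every comparison, in the transfections by their range over the miRs, other pathway genes mostly where they passed the test, the 2 genes most similar to each member, and the member with the lowest p in each kind of transfection. The members and lists were chosen with earlier results of these data known. Runs and batches pair the libraries by their labels, but the titles of the single-end libraries between 0 h and 96 h hold no replicate number. Deviations of libraries of the same number had a median correlation of 0.02 in the fractions, 0.33 with mimics and 0.31 with inhibitors. In total RNA the value was 0.32, but with 2 libraries per group its 2 pairs hold the same value. Batches of a transfection are biological replicates per the labels. The tests were checked on simulated counts.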

Additional observations from a re-analysis of the deposited data

How the results depend on the processing

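Counts of members called in the fractions were within 1.5 times their main value under every alternative run. In total RNA, where 0 members were called, the run as a replicate block gave 1 (*Dicer1*) and 14 libraries with that block gave 2 (*Dgcr8*, 0.48, and *Dicer1*, 0.50). With mimics the count of 0 became 1 at an adjusted p under 0.05, with batch as a block, by DESeq2, with no filter, against the other 13 miRs and without the miR-1946b library of batch 2, an alternative chosen after seeing the data. Leaving out a library gave 0 to 1. With inhibitors it became 2 against the other 13 miRs. The block changed no other call of a member. The cause was not tested.

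Small differences changed sign. *Dgcr8* in nuclear RNA at 96 h, -0.03, was 0.0027 by DESeq2 and by its size factors and 0.0041 with 10 counts in every library, and leaving out 1 library gave -0.067 to 1.5e-05. Over the libraries left out, cytoplasmic *Ago3* ranged from -0.16 to 0.06 and *Tarbp2* from -0.0023 to 0.10, nuclear *Drosha* from -0.042 to 0.12 and *Ago4* from -0.11 to 0.50, and the fraction difference of *Ago4* from -0.053 to 0.068. In total RNA the ranges were -0.46 to 0.22 for *Drosha*, -0.38 to 0.024 for *Ago1*, -0.67 to 0.36 for *Ago2* and -0.038 to 0.72 for *Ago3*. *Tarbp2* with the miR-1946b mimic ranged from -0.027 (without the library of batch 2) to 0.62. The nuclear call of *Xpo5* was also lost with DESeq2 size factors (adjusted p = 0.053), no filter (0.14), 10 counts in every library (0.056) and 0 h and 96 h alone (0.058). The fraction call of *Ago1* was lost with DESeq2 (0.067), its size factors (0.072), no filter (0.073) and 10 counts in every library (0.077), and that of *Dgcr8* with no filter (0.21).

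Counts over all genes moved more. With mimics 172 tests were called, and 465 at an adjusted p under 0.05, 732 with the block, 432 by DESeq2, 112 against untreated cells, 467 against the other 13 miRs, 1 in fits of 2 groups, 415 with the batch 3 library of miR-100-5p, and 3 to 457 without a batch or library. With inhibitors 78 were called, and 217, 395, 205, 268 with no filter, 295 against the other 13 miRs, 10 in fits of 2 groups and 1 to 64 without a batch or library. In total RNA 4683 genes were called, 7462 with the block, 8519 in 14 libraries with it, 2519 without run 1 and 2731 without run 2 at 96 h. The change of the fraction difference was called in 12 genes, 7 with the block, 521 with no filter, 150 by DESeq2 and 0 to 107 without a run, and the fraction difference in 3677, or 2125 without cytoplasmic run 6.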
